A study of Mus musculus with 20 samples.

Results

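The histone genes of the mouse were followed through 20 one-colour arrays of brain RNA. A gene was taken when the RefSeq symbol of its accession had the form of a histone name (H1, H2a, H2b, H3 or H4 followed by a letter, an older Hist1h to Hist4h symbol, or H2af). RefSeq held 111 such genes, of which 70 had a probe on the array, out of 20972 symbols with a probe. The 70 genes had 85 probes. The remaining 41 genes, among them all 8 pseudogenes, were not matched to a probe and were not analysed here. The rule uses gene names and no measured value, but it was set with earlier results of these data known.

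The arrays came from male C57BL/6J mice in 4 groups of 5. All mice carried a Tet-binding protein under the GFAP promoter, which is active in astrocytes, and all were given doxycycline at 100 mg/kg for 7 days. Tat+ mice also carried the HIV-1 Tat transgene under the tetracycline-responsive element, so that doxycycline turned on Tat in GFAP-expressing cells, and Tat− mice lacked it. Within each genotype, mice received methamphetamine (Meth, 2 mg/kg) or saline (Sal) on 7 days, and the 4 groups are written as genotype and injection, as in Tat−/Meth. Per the study's methods every animal, saline groups included, was given a Meth challenge after abstinence, so the saline groups are not free of Meth. The labels name the left brain hemisphere and mice of 6 to 7 weeks, while the methods name the caudate putamen and adult mice of several months. The 10 tested probes of the 8 striatal markers were well above background on all 20 arrays. Of the cortical markers, Tbr1 was above background on 20 arrays, Slc17a7 on 18 and Neurod6 on 12.

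The arrays did not lie evenly over the glass slides. Slide 1 held the 5 Tat−/Meth arrays and nothing else. Slide 2 held the 5 Tat−/Sal arrays with Tat+/Meth replicates 1 to 3, and slide 3 held Tat+/Meth replicates 4 and 5 with the 5 Tat+/Sal arrays. The bright-corner control spots were at 14.66 to 15.06 log2 units on slide 1, below the 16.80 to 17.42 of slides 2 and 3. The negative-control spots had a higher net signal on slide 1, 44.7 to 92.3 beside 21.5 to 27.6. Tat−/Meth replicate 5 had the highest of these, 92.3, and the highest share of probes well above background, 70.9% against 55.3% to 68.1% on the other 19 arrays. In every comparison that uses Tat−/Meth, group and slide therefore cannot be told apart.

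Histones are the proteins that wrap DNA into nucleosomes. H2A, H2B, H3 and H4 form the core, and H1 binds the linker DNA between cores. Replication-dependent histone genes lie mostly in clusters, are transcribed as DNA is copied, and give mRNAs that end in a stem-loop rather than a poly(A) tail, although several also make polyadenylated transcripts in cells that have stopped dividing. Variant genes such as H3f3a, H3f3b (both H3.3), H2az1 and H2az2 (H2A.Z) and H2ax (H2A.X, phosphorylated at DNA breaks) give polyadenylated mRNA at all times and are the main source of new histone in neurons. The low-input labelling kit named by the labels primes on poly(A), while the methods name another labelling kit. With the kit of the labels, the array reads the tailed or internally primed part of a replication-dependent gene's RNA.

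Of the 70 genes, 46 were replication-dependent and had 52 probes, and 24 were variants and had 33 probes. Over the 85 probes, 53 were well above background on all 20 arrays, 23 on some and 9 on none. The 61 probes that were well above background on at least 10 of the 20 arrays, of 51 genes, were tested: 42 replication-dependent probes of 38 genes and 19 variant probes of 13 genes. The 9 probes never above background were those of H1f3, H2ac21, H3c1, H2ab1, H2al2a and H2al3, both probes of H2bl1, and the second probe of H4f16. The testis genes behaved differently from one another: H1f6 was above background on 8 arrays and was not tested, whereas H2ac1 and H2bc1 were above background on all 20.

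The promoters of the genes that the results turn on are shown first. H4f16 and H4c8 had the largest rise and the largest fall, and H4c12 is a second H4 gene that rose. H1f5 followed the dividing-cell genes, H2bc18 varied widely between arrays, and H3f3b is a variant. Motif shares differ between the classes over all their promoters, but the promoters shown do not separate the classes. Each run is 300 bases, from 250 before to 50 after a transcript start, from RefSeq on GRCm38.p6, read 5′ to 3′ on the gene's strand. For H3f3b this start lies inside the annotated gene (chr11:116021961-116026039, minus strand), downstream of its outermost start, and for the others it is the outermost start. Capitals mark matches, on either strand, to any of 5 motifs. The TATA box was searched as TATAAA. The box bound by NF-Y was searched as CCAAT. The octamer of H2B promoters was searched as ATTTGCAT. The H1 box was searched as AAACACA. An element of H4 promoters was searched as GGTCCG.

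H4f16 (chr6:136804382-136804681, minus strand): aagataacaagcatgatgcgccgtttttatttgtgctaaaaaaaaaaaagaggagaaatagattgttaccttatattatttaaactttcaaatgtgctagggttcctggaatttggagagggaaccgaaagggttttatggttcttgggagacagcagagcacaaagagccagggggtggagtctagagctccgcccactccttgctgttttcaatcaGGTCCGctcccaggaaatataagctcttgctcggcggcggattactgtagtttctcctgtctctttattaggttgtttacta
H4c8 (chr13:23530794-23531093, plus strand): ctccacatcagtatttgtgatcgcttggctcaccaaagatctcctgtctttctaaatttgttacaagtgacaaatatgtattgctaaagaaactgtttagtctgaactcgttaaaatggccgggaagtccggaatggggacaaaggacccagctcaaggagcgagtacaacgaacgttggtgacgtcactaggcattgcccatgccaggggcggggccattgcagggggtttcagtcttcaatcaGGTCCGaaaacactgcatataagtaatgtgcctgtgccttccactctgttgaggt
H4c12 (chr13:21750504-21750803, minus strand): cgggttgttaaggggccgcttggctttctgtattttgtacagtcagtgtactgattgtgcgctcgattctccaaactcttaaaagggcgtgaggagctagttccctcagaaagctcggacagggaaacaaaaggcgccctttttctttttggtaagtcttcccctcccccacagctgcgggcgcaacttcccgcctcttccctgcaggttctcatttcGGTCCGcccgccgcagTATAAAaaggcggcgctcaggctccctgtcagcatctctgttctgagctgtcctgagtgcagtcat
H1f5 (chr13:21780576-21780875, minus strand): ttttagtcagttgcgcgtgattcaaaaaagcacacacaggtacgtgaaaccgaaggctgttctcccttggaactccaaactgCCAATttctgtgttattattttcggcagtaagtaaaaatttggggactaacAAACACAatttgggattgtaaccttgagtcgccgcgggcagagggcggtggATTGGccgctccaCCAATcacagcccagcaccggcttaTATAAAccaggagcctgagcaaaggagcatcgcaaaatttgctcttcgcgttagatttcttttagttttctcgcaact
H2bc18 (chr3:96269450-96269749, plus strand): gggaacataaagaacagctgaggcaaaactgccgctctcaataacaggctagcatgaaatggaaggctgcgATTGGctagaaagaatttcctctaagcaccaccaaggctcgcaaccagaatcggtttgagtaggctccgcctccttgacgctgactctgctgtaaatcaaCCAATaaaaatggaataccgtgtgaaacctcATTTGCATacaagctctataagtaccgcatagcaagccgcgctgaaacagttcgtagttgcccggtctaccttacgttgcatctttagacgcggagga
H3f3b (chr11:116024455-116024754, minus strand): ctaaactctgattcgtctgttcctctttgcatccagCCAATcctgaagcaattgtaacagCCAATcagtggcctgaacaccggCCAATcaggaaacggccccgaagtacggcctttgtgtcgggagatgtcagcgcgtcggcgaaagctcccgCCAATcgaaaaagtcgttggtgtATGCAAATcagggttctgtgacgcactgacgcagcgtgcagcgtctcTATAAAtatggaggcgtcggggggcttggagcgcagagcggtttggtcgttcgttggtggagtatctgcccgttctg

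GGTCCG stood in 11 of the 12 replication-dependent H4 promoters (91.7%) against 8.25% of all 32851 promoters of this length. It stood in H4f16 and H4c8 alike, and a TATAAA match was in neither. CCAAT was in all 18 replication-dependent H2A, all 17 H2B, all 10 H3 and all 6 H1 promoters, but in 3 of 12 H4 promoters, against 37.4% of all promoters. AAACACA was in 5 of the 6 replication-dependent H1 promoters against 7.18% of all, and the octamer was in 7 of 17 H2B and 7 of 18 H2A promoters, many of which are shared by a divergent pair, against 1.74% of all. Of 63 replication-dependent promoters 55.6% held TATAAA, compared with 11.4% of 35 variant promoters and 13.6% of all. The H3f3b promoter was among the variant promoters that held TATAAA, and the only one that held the octamer. The matches are letters in a window, not tested sites.

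Repeated Meth in mice without Tat was examined first, as Tat−/Meth vs. Tat−/Sal. H4 genes moved furthest and in both directions. H4f16, which encodes histone H4 and lies outside the large clusters, was 3.34-fold higher at its only tested probe. H4c8, an H4 gene of the chromosome 13 cluster, was 5.50-fold lower. The oocyte linker histone H1f8 and the X-linked H2B variant H2bfm were also lower, by 3.29-fold and 2.31-fold, both from low signals. The replication-dependent H2B genes did not pass the test.

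On the Tat−/Meth arrays the scaled log2 signal of H4f16 (the log2 processed signal after all arrays were brought to a common 75th percentile) was 12.48, 12.43, 12.60, 12.49 and 12.46. On the Tat−/Sal arrays it was 10.75, 10.81, 10.77, 10.72 and 10.704. The groups were far apart, with no overlap, and the Tat+/Meth arrays (10.71 to 10.95) and Tat+/Sal arrays (10.66 to 11.08) lay close to Tat−/Sal. The difference was 1.74 ± 0.075 log2 units (SE; limma adjusted p = 5.05e-12). The rise of H4f16 rests on probe A_55_P1988754 alone. Its other probe, A_51_P148860, did not clear background on any array and was not tested, with group means of 2.64 to 3.47.

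For H4c8 the signal was 7.49, 7.68, 7.52, 7.44 and 7.68 in Tat−/Meth and 9.85, 10.11, 9.93, 10.10 and 10.12 in Tat−/Sal. Each Tat−/Meth array was below every array of the other groups, among which Tat+/Meth ran from 9.85 to 10.20 and Tat+/Sal from 9.81 to 10.16. The difference was -2.46 ± 0.082 (limma adjusted p = 4.13e-13).

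The other H4 probes were mostly higher in Tat−/Meth. The 2 probes of H4c12 rose by 0.89 ± 0.085 and 0.35 ± 0.094, H4c11 by 0.57 ± 0.085 and H4c4 by 0.40 ± 0.092, each with all 5 Tat−/Meth arrays above all Tat−/Sal arrays (limma adjusted p from 1.2e-07 to 0.00514). H4c17 rose by 1.05 ± 0.36 (limma adjusted p = 0.0211), but from a low and scattered signal of 6.80 ± 0.61 (SD, n = 5) against 5.75 ± 0.66. In all, 7 of 11 replication-dependent H4 probes passed (63.6%), 6 higher and 1 lower. Over all probes tested 48.4% passed, 26.3% higher and 22.1% lower. How many of all probes separate Tat−/Meth from Tat−/Sal in full was not counted. H4c3, H4c14 and both probes of H4c9 did not pass. The coding sequences of H4 genes are nearly the same, so signal at one probe may come in part from RNA of another H4 gene, and which gene a change belongs to is uncertain.

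**Figure D1:**
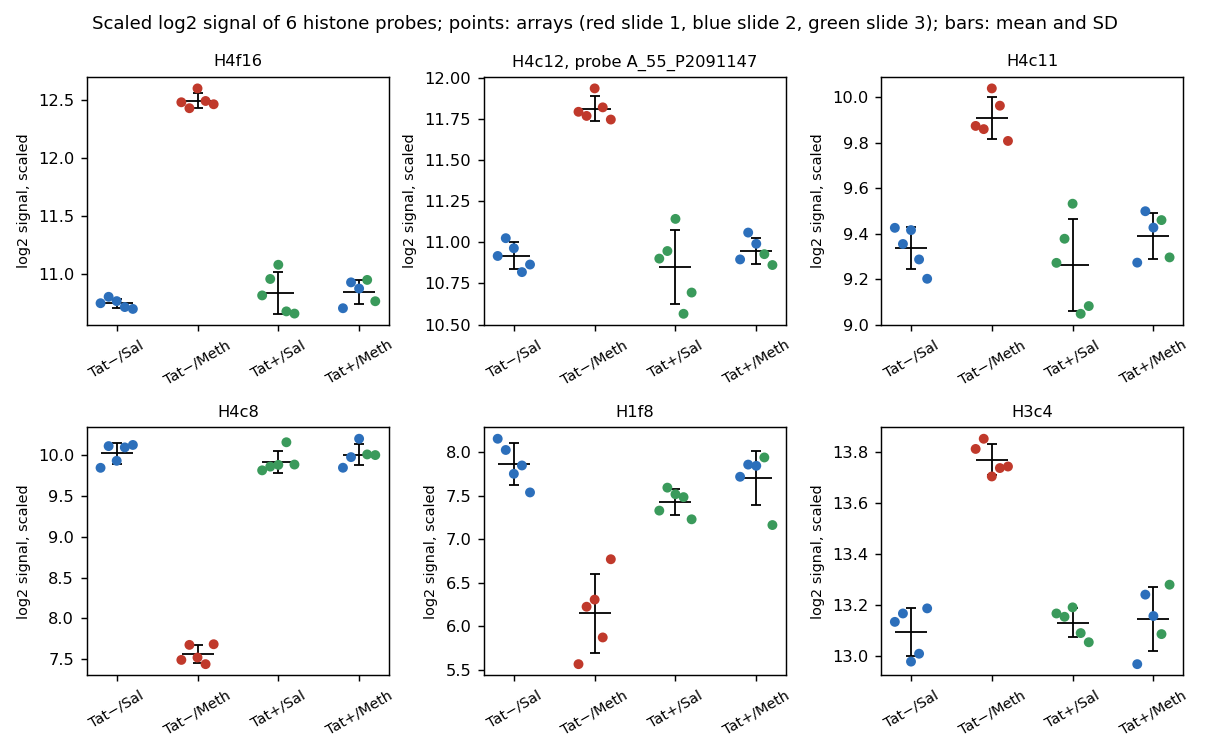
Scaled log2 signal (vertical axis, log2 units, own range in each panel) of 6 histone probes in the 4 groups of 5 arrays; points are arrays coloured by slide, bars the mean and SD. The Tat−/Meth arrays, all on slide 1, stand above every other array for H4f16, H4c12, H4c11 and H3c4 and below every other array for H4c8 and H1f8.

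Of the H3 genes, which encode the replication-dependent H3 proteins, 5 of 6 probes passed, 3 higher and 2 lower, against 48.4% of all probes tested. H3c4 rose by 0.68 ± 0.063, H3c13 by 0.56 ± 0.094 and H3c8 by 0.55 ± 0.21. H3c7 was lower by 1.92-fold and H3c3 by 1.33-fold. H3c4 read 13.81, 13.85, 13.71, 13.74 and 13.74 in Tat−/Meth and 13.13, 13.17, 12.98, 13.01 and 13.19 in Tat−/Sal, so the groups did not overlap. H3c7, in contrast, was at 6.22, 6.51, 6.14, 6.10 and 7.14 in Tat−/Meth and at 7.16 to 7.57 in Tat−/Sal, where the gap to the highest Tat−/Meth array was small.

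Among the replication-dependent H1 genes, H1f4 and H1f2 rose, by 0.60 ± 0.21 and 0.39 ± 0.11 (limma adjusted p = 0.0247 and 0.00815). H1f5 and H1f1 did not pass. Of 13 H2A probes 3 passed (23.1%, against 48.4% of all probes tested): H2aw by 0.42 ± 0.079, and the 2 probes of H2ac19, which went opposite ways. None of the 8 replication-dependent H2B probes passed, with differences from -0.47 to 0.46 and the smallest limma adjusted p at 0.15. H2bc4 differed by 0.05 ± 0.10 and H2bc21 by -0.11 ± 0.099.

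Of the variants, H2ax rose by 0.34 ± 0.067 (limma adjusted p = 0.000412), with 13.15 to 13.23 in Tat−/Meth and 12.75 to 12.98 in Tat−/Sal. The H3.3 gene H3f3b rose at 2 of its 3 probes, by 0.48 ± 0.077 and 0.21 ± 0.074, and the third differed by 0.21 ± 0.10 (limma adjusted p = 0.105). The H2A.Z genes, H2A.Z being the variant at promoters, did not pass at any of their 4 probes: H2az1 differed by 0.13 ± 0.065 and 0.11 ± 0.086, and H2az2 by 0.06 ± 0.070 and -0.09 ± 0.089. The linker variants H1f0, found in differentiated cells, and H1f10 did not pass either, at 0.40 ± 0.23 and 0.16 ± 0.099. H1f8 was at 5.57, 6.23, 6.31, 5.87 and 6.77 in Tat−/Meth and at 7.54 to 8.16 in Tat−/Sal, well above background on all of these arrays.

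Over all histone probes, 24 of 61 passed, 17 higher and 7 lower in Tat−/Meth (39.3%), against 48.4% of the 33399 probes tested (26.3% higher and 22.1% lower). Above 2-fold there were 5, 2 higher and 3 lower, against 11.9% of all probes (0.638% higher and 11.2% lower). The replication-dependent and variant probes passed at like shares, 17 of 42 and 7 of 19. The median difference of the histone probes was 0.096, beside 0.091 over all probes tested. The histones as a group thus moved no more often than the array as a whole.

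The directions of the smaller differences rest on the scaling. Slide 1 was dimmer, and without scaling 3 histone probes were higher and 29 lower, where the median of all probes tested moved from 0.091 to -0.33. The share of all probes passing in each direction without scaling is not given here. These counts therefore show how the histone calls depend on scaling, not a trait of histones. The 3 that stayed higher and passed were H4f16 (1.32), H4c12 at the probe with the larger rise (0.47) and H3c4 (0.25), while H4c8 (-2.88) and H1f8 (-2.14) stayed lower. Without scaling H2ax (-0.08), H1f2 (-0.03), 1 probe of H3f3a (-0.18) and 1 of H3f3b (-0.21) lay on the other side of 0 and did not pass.

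**Figure D2:**
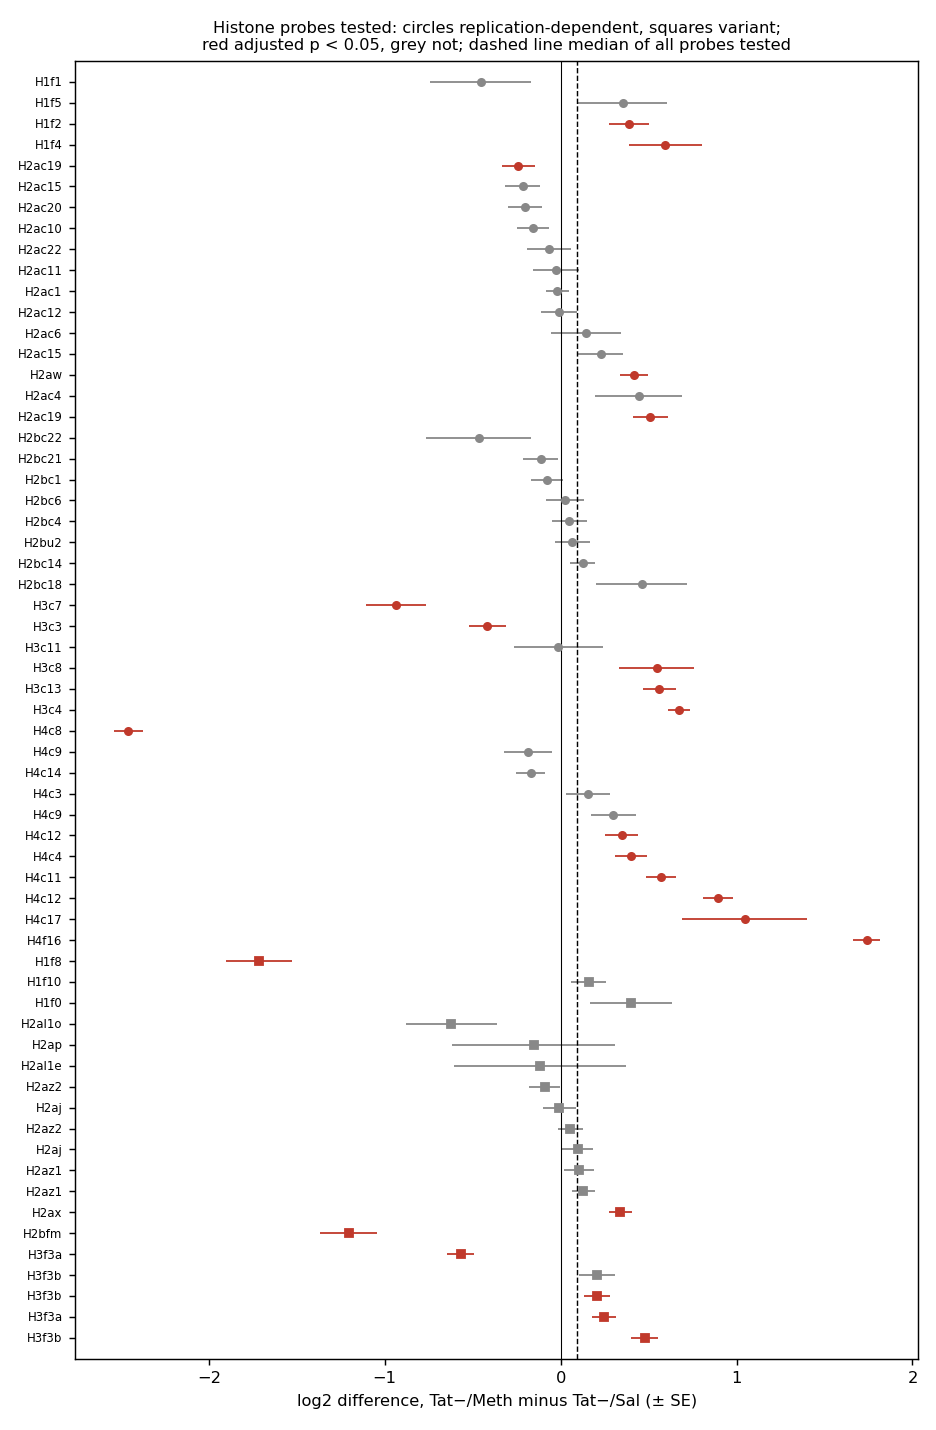
Difference in scaled log2 signal, Tat−/Meth minus Tat−/Sal (horizontal axis, log2 units, with SE), for the 61 histone probes tested, 1 row per probe. Red marks the 24 with adjusted p under 0.05, and the dashed line is the median of all probes tested, 0.091; most probes lie near it, with H4f16 and H4c8 farthest to either side.

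The genes that make and handle histones were followed with fixed lists. For histone mRNA processing (stem-loop binding, cleavage and decay) 11 of 18 probes passed, 8 higher and 3 lower, with a median of 0.18, beside 48.4% of all probes tested (26.3% higher and 22.1% lower) and their median of 0.091. Slbp, which binds the stem-loop, rose by 0.59 ± 0.14 at 1 probe and differed by 0.15 ± 0.21 at the other. Zfp473, a zinc finger protein of the processing complex, was lower at 1 probe (-0.998 ± 0.27) and at 0.56 ± 0.26 at the other, which did not pass. For Cstf2, a cleavage factor, both probes were lower, by -0.45 ± 0.14 and -0.16 ± 0.056.

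For histone chaperones and exchange factors, 22 of 48 probes passed, 16 higher and 6 lower, with a median of 0.15, a share no higher than the 48.4% over all probes. Several genes of this list had probes on both sides of 0. Ssrp1, of the FACT complex, was at -1.32 ± 0.10 and 0.23 ± 0.057, and Chaf1b, a subunit of chromatin assembly factor 1, at 1.05 ± 0.30 and -0.53 ± 0.14, all 4 passing. The 5 probes of Npm1, nucleophosmin, ran from -1.21 to 0.53. Outside the naming rule, 3 of 5 probes of macroH2A and CENP-A genes passed, among them Cenpa, the centromeric H3, at 0.74 ± 0.27, and Macroh2a1 at 0.73 ± 0.12, -0.26 ± 0.084 and, not passing, -0.09 ± 0.12.

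Of the S phase and mitosis list 9 of 24 probes passed, all 9 higher, with a median of 0.32, against 48.4% of all probes passing and 26.3% passing higher. Birc5, survivin, rose by 1.05 ± 0.32 and 0.67 ± 0.22 at 2 of 3 probes and was at 0.45 ± 0.30 at the third. Bub1, a spindle checkpoint kinase, rose by 1.01 ± 0.33, and Cdt1, a licensing factor, by 0.58 ± 0.19. The mean of the list ran from 9.02 to 9.57 in Tat−/Meth and from 8.60 to 9.33 in Tat−/Sal, which overlap. Markers of some other cell types moved as well. The mean of the astrocyte markers was 12.30 to 12.64 in Tat−/Meth and 11.97 to 12.08 in Tat−/Sal, with 5 of 7 probes passing, all higher (26.3% of all probes were). That of oligodendrocyte precursors was 11.20 to 11.36 against 10.79 to 11.10, with 3 of 4 probes passing higher and Olig2 at -0.07 ± 0.15. Of the other lists, 1 of 8 oligodendrocyte, 1 of 6 neuroblast and 1 of 3 endothelial probes passed higher. Lower were 2 of 8 microglial, 2 of 10 striatal and 1 of 5 choroid plexus probes (22.1% of all probes were). No cortical neuron or red blood cell probe passed. The part of these lists in the histone differences was not tested. In bulk RNA, more cells of a type and more RNA per cell cannot be told apart.

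Tat in mice given Meth was examined as Tat+/Meth vs. Tat−/Meth. This shares the Tat−/Meth arrays with the comparison above, so the same arrays stand behind both sets of values. H4f16 was 3.12-fold lower in Tat+/Meth and H4c8 5.44-fold higher. In total 30 of 61 histone probes passed, 13 higher and 17 lower, against 51.4% of all probes tested (23% higher and 28.4% lower). Above 2-fold there were 4, against 12.4% of all probes: H4c8, H1f8 and H2bfm higher (11.7% of all probes were higher) and H4f16 lower (0.641% were lower). With median scaling 15 probes passed, 4 higher and 11 lower, and without scaling 27 passed, 24 higher and 3 lower. Shares of all probes at these scalings are not given here.

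On the Tat+/Meth arrays H4f16 read 10.71, 10.93, 10.88, 10.95 and 10.77, and the difference from Tat−/Meth was -1.64 ± 0.075. H4c8 differed by 2.44 ± 0.082. H4c12 was lower by -0.86 ± 0.085 and -0.27 ± 0.094 at its 2 probes, H3c4 by -0.62 ± 0.063, H4c11 by -0.52 ± 0.085 and H3c13 by -0.52 ± 0.094. Higher beside H4c8 were H1f8 at 1.56 ± 0.19, H2bfm at 1.42 ± 0.16 and H3c7 at 0.70 ± 0.17.

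Of the 13 H2A probes 7 passed here (53.8%), 5 of them higher in Tat+/Meth, against 51.4% of all probes tested (23% higher). These 5 were probes of genes in the clusters on chromosomes 3 and 13, H2ac10, H2ac12, H2ac15, H2ac19 and H2ac20, with differences of 0.26 to 0.45 ± 0.090 to 0.10. With median scaling the difference at this H2ac15 probe fell to 0.29 and at this H2ac19 probe to 0.27. H2ac10 read 15.22, 15.68, 15.76, 15.55 and 15.73 in Tat+/Meth and 15.10, 15.26, 15.17, 15.16 and 15.34 in Tat−/Meth, with Tat+/Meth replicate 1 inside the range of Tat−/Meth. All 5 had their highest value on Tat+/Meth replicate 3. H2A genes of the clusters are nearly identical in sequence, so these probes may read the same RNA. H2aw fell by 0.46 and H2ac19 at its other probe by 0.42. The other probe of H2ac15, A_52_P498208, differed by -0.135 ± 0.127 and did not pass.

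Among the variants H2ax was lower by -0.24 ± 0.067, H2az1 by -0.21 ± 0.065 and -0.22 ± 0.086, and H3f3b by -0.47 ± 0.077 and -0.21 ± 0.074 at 2 of 3 probes, the directions of H2ax, H2az1 and the smaller H3f3b difference being opposite without scaling. H1f2 fell by 0.40. H2bc21 was 0.26 ± 0.099 higher, but did not pass without any 1 of 5 arrays (0.19 to 0.26) or with median scaling (0.11). In the lists, 9 of 18 mRNA processing probes, 25 of 48 chaperone probes and 7 of 24 S phase probes passed, against 51.4% of all probes, with medians of -0.20, -0.08 and -0.19 beside -0.085 over all probes tested.

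H3f3a and H2ac19 were each read by 2 probes that passed in opposite directions in Tat−/Meth vs. Tat−/Sal. For H3f3a, probe A_55_P2065369 read 14.94 to 15.07 in Tat−/Meth and 14.63 to 14.82 in Tat−/Sal, 0.25 ± 0.069 higher. Probe A_55_P2078266 of the same gene read 13.73 to 13.86 in Tat−/Meth and 14.22 to 14.45 in Tat−/Sal, 0.57 ± 0.075 lower. For H2ac19, probe A_55_P1962084 was 0.51 ± 0.10 higher and probe A_55_P2131438 0.24 ± 0.092 lower. Each of the 4 differences passed (limma adjusted p of 0.00694, 6e-06, 0.000383 and 0.0385) and each separated all 5 arrays of one group from the other. The call of A_55_P2131438 was lost without any 1 of 5 arrays (-0.24 to -0.20) and with median scaling (-0.12). No direction for H3f3a or H2ac19 can be given from these arrays. The probes of H2ac15 (0.228 ± 0.127 and -0.216 ± 0.098) also lay on both sides of 0, and neither passed. Those of H4c9 (0.30 ± 0.128 and -0.187 ± 0.135) did the same.

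**Figure D3:**
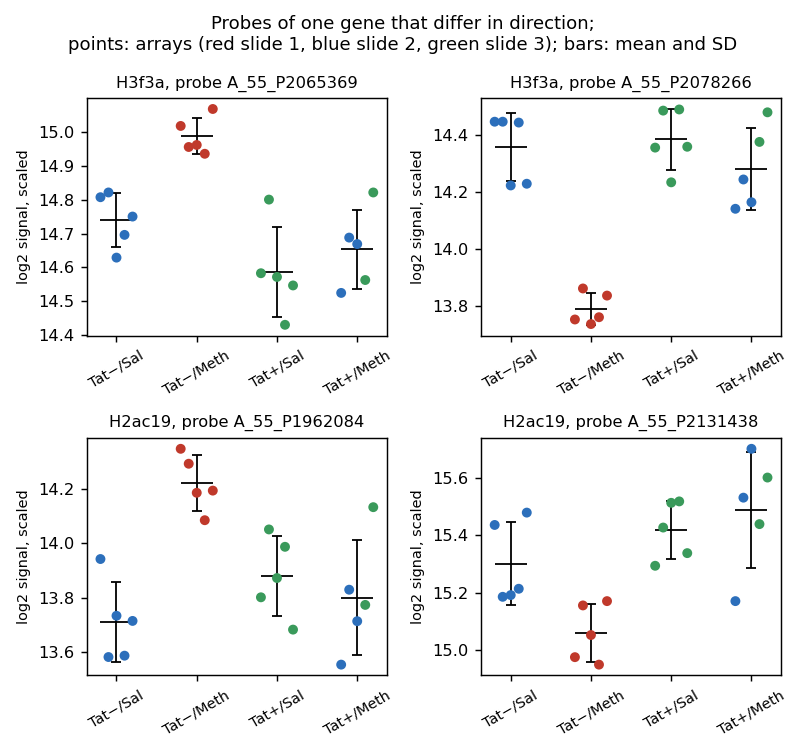
Scaled log2 signal (vertical axis, log2 units, own range in each panel) at the 2 probes of H3f3a and the 2 of H2ac19 in the 4 groups of 5 arrays; points are arrays coloured by slide, bars the mean and SD. For each gene the Tat−/Meth arrays lie above Tat−/Sal at one probe and below at the other, by 0.25 and -0.57 for H3f3a and by 0.51 and -0.24 for H2ac19.

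The interaction, the Meth effect in Tat+ less that in Tat−, uses all 4 groups. It passed for 14 of 61 histone probes, against 35.4% of all probes, and 5 of these were above 2-fold, against 12.6% of all probes. H4c8 stood at 2.55 ± 0.12, H1f8 at 1.99 ± 0.27, H2bfm at 1.33 ± 0.23 and H3c7 at 1.08 ± 0.24. On the negative side were H4f16 at -1.73 ± 0.11, H4c12 at -0.80 ± 0.12 at 1 of 2 probes, and H3c4 at -0.66 ± 0.089. No replication-dependent H2B or H1 probe passed.

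The 3 comparisons without Tat−/Meth gave no histone call. Tat without repeated Meth was read from Tat+/Sal vs. Tat−/Sal. There 0 of 61 probes passed limma, against 0.299% of all probes. At an unadjusted p under 0.05 there were 8, and 9 by the test the methods name. The share of all probes at an unadjusted p under 0.05 was not counted, here or in the other comparisons without Tat−/Meth. The smallest adjusted p was 0.0765, for H1f10, which read 9.725 to 10.11 in Tat+/Sal and 9.38 to 9.719 in Tat−/Sal. The difference was 0.39 ± 0.099, and the groups nearly touched without overlapping. H2az2 was next, at -0.33 ± 0.089 at 1 of 2 probes, and the other probe differed by 0.01 ± 0.070. With slide as a random block 4 histone probes passed, and with slide as a fixed block none. The random block had a fitted correlation within slides of -0.061, so these 4 calls do not allow for a shift shared by a slide.

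For Tat+/Meth vs. Tat+/Sal, 0 of 61 passed, against 0% of all probes. At an unadjusted p under 0.05 there were 9, and 3 by the test the methods name. For Tat+/Meth vs. Tat−/Sal, 0 of 61 passed, against 0.00299% of all probes. At an unadjusted p under 0.05 there were 8, and 3 by the test the methods name. H4f16 and H4c8 showed little in either. H4f16 differed by 0.01 ± 0.075 and 0.10 ± 0.075, and H4c8 by 0.09 ± 0.082 and -0.02 ± 0.082. Within slide 2, where Tat+/Meth replicates 1 to 3 met the Tat−/Sal arrays, H4f16 differed by 0.09 ± 0.071 and H4c8 by -0.01 ± 0.11, and within slide 3 the 2 Tat+/Meth arrays differed from Tat+/Sal by 0.02 ± 0.14 and 0.09 ± 0.12. No histone probe passed within either slide.

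The smallest adjusted p between Tat+/Meth and Tat+/Sal was that of H1f4 (0.71 ± 0.21, limma adjusted p = 0.287), and H2bc18 (0.71 ± 0.26) and H2ac4 (0.69 ± 0.25) differed by like amounts. Their arrays varied widely. H1f4 read 9.78, 9.62, 9.82, 9.10 and 9.09 in Tat+/Sal and 9.91, 10.06, 10.92, 9.88 and 10.16 in Tat+/Meth. H2ac4 read 11.31, 11.09, 11.31, 10.32 and 10.02 in Tat+/Sal, and H2bc18 read 7.61, 7.33, 7.64, 6.10 and 6.40. In each of the 3 genes, Tat+/Sal replicates 4 and 5 lay below every other array, and the highest array was Tat−/Meth replicate 5 or Tat+/Meth replicate 3. The H4 probes of H4c3, H4c4, H4c11, H4c12 and H4c14 also had their lowest value on Tat+/Sal replicate 4. These 2 arrays stood at 55.3% and 58.3% of probes well above background, in a range of 55.3% to 70.9% over all arrays, and their part in the spread was not tested.

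**Figure D4:**
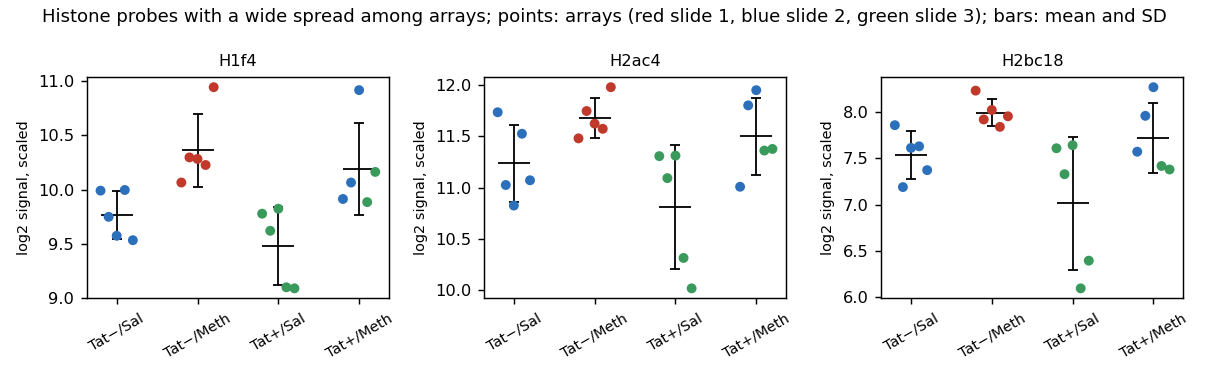
Scaled log2 signal (vertical axis, log2 units, own range in each panel) of H1f4, H2ac4 and H2bc18 in the 4 groups of 5 arrays; points are arrays coloured by slide, bars the mean and SD. Tat+/Sal replicates 4 and 5, the 2 lowest green points, lie below every other array in each panel, at 9.10 and 9.09 for H1f4.

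Replication-dependent histone mRNA marks cells in S phase, so the histone probes were also set against the mean of 20 genes of the S phase and mitosis list, each centred within its group. This relation was chosen after the data were seen. Of 61 histone probes 43 had a positive slope, with a median of 0.18 log2 units per unit of the list beside -0.005 over all probes outside the list. In limma 3 passed, all positive and replication-dependent, against 0.971% of 33375 probes passing with a positive slope. They were H1f5 (1.42 ± 0.29), H2ac15 at probe A_52_P498208 (0.74 ± 0.13) and H2ac11 (0.68 ± 0.16). The other probe of H2ac15, A_55_P2084652, had a slope of 0.37 ± 0.15 and did not pass (limma adjusted p = 0.38). With slide in the fit H1f5 and H2ac15 at probe A_52_P498208 passed, against 1.04% of all probes in either direction. H2ac11 then did not pass (limma adjusted p = 0.0536).

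Over the 20 arrays H1f5 followed the list with Pearson's r of 0.78 (permutation p = 0.00148) and Spearman's rho of 0.67 (permutation p = 0.00992). For H2ac15 at probe A_52_P498208 r was 0.84 (permutation p = 0.00013) and rho 0.84 (permutation p = 0.00027). For H2ac11 r was 0.74 (permutation p = 0.00212) and rho 0.62 (permutation p = 0.0125). Permutations were two-sided, 100000 in number, and kept arrays within their group. They were run only for these 3 probes, which had been picked by their slope on the same arrays. Their p-values were not adjusted for the 61 histone probes and add no separate support. With the list centred within each group, the 2 arrays farthest from its median were Tat−/Sal replicate 3 and Tat+/Meth replicate 1. Without them r was 0.61, 0.82 and 0.49 and the slopes were 1.24, 0.92 and 0.45. None of the 3 then passed in limma (adjusted p of 0.307, 0.0586 and 0.441), and over all probes outside the list 92 passed in place of 349. H1f5 was lowest, 7.36, on Tat−/Sal replicate 3, where the list was lowest too, at 8.60.

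**Figure D5:**
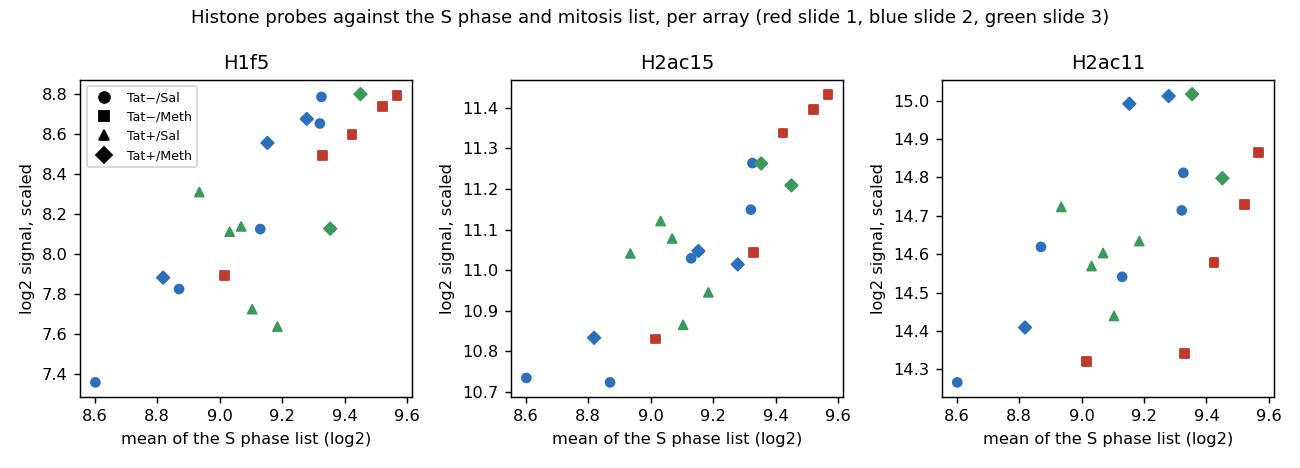
Scaled log2 signal of H1f5, H2ac15 (probe A_52_P498208) and H2ac11 (vertical axis, log2 units) against the mean of the S phase and mitosis list (horizontal axis, log2 units), 1 point per array, shaped by group and coloured by slide. Values rise together, with r of 0.78, 0.84 and 0.74 once each group is centred, and Tat−/Sal replicate 3 at the lower left with 8.60 on the list.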

How the data were processed

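Per the labels, total brain RNA of 20 mice was labelled by the authors with an Agilent low-input kit and hybridised to 1-colour arrays. There was 1 array per mouse, so replicates are animals. The deposited scanner files hold the spot intensity: per the file headers, Agilent's processed signal is already background-subtracted. The authors' methods name ArrayStudio, and another labelling kit, dye and array format than the labels. Each array had 62976 spots, 3671 of them controls. The number of arrays limits the precision, and arrays give no counts. The deposited value table was used only as an alternative; its log2 was taken here after values below 1 were set to 1.

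Control spots and spots marked as outliers (4278 over all arrays) were left out, log2 processed signals were averaged per probe (55681 probes), and the 75th percentile of each array was subtracted and the mean of these percentiles added back. Of these probes 27656 had a symbol through their accession in RefSeq. Every probe well above background on at least 10 of 20 arrays (33399), whatever its group, was fitted in limma 3.58.1 (R 4.3.3) with 1 mean per group over 20 arrays, and p-values were adjusted by Benjamini-Hochberg over all of them, with a threshold of 0.05. The 10-array rule can keep a probe through the groups where it is high. The fit was tested on simulated data. Permutations and tables used Python 3.11.15 and SciPy 1.17.1. Levels are not compared between probes.

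The members, lists and tests were chosen with earlier results of these data known. Named were, per comparison, at most 6 passing histone probes in each direction, with H1f0, H1f2, H1f4, H1f10, H2ax, H2az1, H2az2, H3f3a, H3f3b, H4f16, H2bc4, H2bc21 and H2ac19 by role; other histone genes were named as examples after their values were seen. Alternatives were median, quantile or no scaling, normexp, the authors' table, 2 filters, the brightest probe, slide blocks, subsets of groups, the methods' t-test, a fold threshold, a replicate block and leaving out each array. The within-slide fits and the S phase relation were added after seeing the data. Replicate numbers of the titles were checked as a pairing. Arrays of the same number deviated together at r from -0.12 to 0.27 over their pairs, so they share only a number.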

Additional observations from a re-analysis of the deposited data

Results flagged for a closer look

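The Meth effect differed between Tat+ and Tat− mice, by the limma interaction, at these named probes: H4c8 (2.55), H1f8 (1.99), H2bfm (1.33), H3c7 (1.08), H3f3a at probe A_55_P2078266 (0.47), H2az2 at probe A_55_P2099520 (0.36), H4f16 (-1.73), H4c12 at probe A_55_P2091147 (-0.80), H3c4 (-0.66), H2ac19 at probe A_55_P1962084 (-0.59), H3c13 (-0.50) and H4c11 (-0.44). The H2az2 call was lost without any 1 of 9 arrays (0.28 to 0.35) and with median scaling (0.12). Each uses the Tat−/Meth arrays, which cannot be told apart from slide 1.

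A single array stood far from the other 4 of its group, by Dixon's ratio above 0.71, in 9 of 100 combinations of a named probe and a group; chance flags about 1 in 20. In Tat−/Meth these were H4c17 on replicate 4 (5.74, group median 7.12) and H1f4 on replicate 5 (10.95, median 10.28). In Tat+/Meth they were H1f4 on replicate 3 (10.92, median 10.06), and H1f8 (7.17, median 7.85) and H3c7 (6.81, median 7.2) on replicate 5. In Tat+/Sal, H4c8 (10.16, median 9.88), H3c7 (7.35, median 6.92) and H3c3 (11.02, median 10.55) were high on replicate 4. In Tat−/Sal, H1f2 was high on replicate 5 (12.42, median 12.17).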

How the results depend on the processing

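The count of histone probes passing in Tat−/Meth vs. Tat−/Sal was 20 to 32 over the alternatives with the same threshold, and 21 to 27 without each array in turn. In Tat+/Meth vs. Tat−/Meth it moved from 30 to 15 with median scaling, and was 25 to 37 without each array. The interaction gave 9 with median scaling, 32 without scaling and 22 with slide as a random block, in place of 14, and 13 to 20 without each array. Requiring more than 2-fold left 5, 4 and 5 probes in these 3 comparisons. Shares of all probes under the other scalings and blocks are not given here. Those counts show only how far the histone calls depend on the processing. Tat+/Sal vs. Tat−/Sal gave 4 with slide as a random block and 1 with the replicate block, in place of 0. The correlation within slides fitted for the random block was -0.061, so its counts do not allow for a shift shared by a slide. With the replicate block the other counts were 25, 32 and 17, and 0 in both comparisons of Tat+/Meth with a saline group; 7 of 20 arrays correlated best with an array of their own number.

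Of 52 named differences, 10 changed sign in an alternative, all without scaling. In Tat−/Meth vs. Tat−/Sal these were H2ax (-0.081), H1f2 (-0.032), H3f3b at probe A_55_P1982030 (-0.21) and H3f3a at probe A_55_P2065369 (-0.18). In Tat+/Meth vs. Tat−/Meth they were H2ax (0.10), H3f3b at probe A_55_P1982030 (0.13), H2az1 at both probes (0.13 and 0.12) and H3f3a at probe A_55_P2065369 (0.004). In the interaction it was H4c11 (0.043). H4f16 kept 1.71 to 1.76 and H4c8 -2.50 to -2.43 in Tat−/Meth vs. Tat−/Sal without each array. H1f4 no longer passed there without Tat−/Meth replicate 5 (0.45), nor without Tat−/Sal replicate 3 (0.55) or 5 (0.54), and H4c17 did not without Tat−/Sal replicate 1 (0.84) or 4 (0.95). H3f3b at probe A_55_P1982030 did not pass there without Tat−/Meth replicate 2 (0.18) or 5 (0.19) or Tat−/Sal replicate 3 (0.16). H2ac19 at probe A_55_P2131438 did not without Tat−/Meth replicate 1, 3 or 4 or Tat−/Sal replicate 1 or 5. In Tat+/Meth vs. Tat−/Meth, H3f3b at probe A_55_P1982030 did not pass without Tat+/Meth replicate 1 or 4 or Tat−/Meth replicate 2 (-0.18 to -0.17), H2az1 at probe A_55_P2099479 without Tat+/Meth replicate 1, 4 or 5 or Tat−/Meth replicate 1, 2 or 3 (-0.23 to -0.17), and H2bc21 without Tat+/Meth replicate 2 or 4 or Tat−/Meth replicate 1, 3 or 4. The H2az2 interaction did not pass without Tat+/Meth replicate 2, 3 or 5, Tat+/Sal replicate 1, Tat−/Meth replicate 2, 3 or 4, or Tat−/Sal replicate 4 or 5. Slide 1 held Tat−/Meth alone, so slide as a fixed block could not be fitted for the comparisons that use it.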
